A study of Homo sapiens with 18 samples.

Results

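Imprinted genes are transcribed mainly from the copy inherited from 1 parent, and the silent copy is marked by DNA methylation that is laid down in the germ line and kept through cell division. Many of them act on growth, placental development and the cell cycle, and cancers often lose the marks or the expression of these genes. Described here are 8 imprinted genes (PEG10, SGCE, MEST, H19, CDKN1C, FAM50B, GRB10 and PHLDA2) among the 16575 genes of the expression table, chosen by symbol and found through their Ensembl identifiers. All 8 were listed, and 7 reached at least 5 CPM, the tag count of a gene scaled to the total of its library, in at least 1 library, the limit set for testing. CDKN1C did not, with a highest value of 4.92 CPM, and is given as values alone. The reads do not tell the parental alleles apart, so the data give the total level of each gene and not its imprinting.

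Expression was measured by CAGE-seq, in which the 5′ ends of capped transcripts are read, in 18 libraries from established lines of bladder cancer cells (CAL-29, HT-1376 and RT-112). In each line a first stable transduction carried WWOX, a tumour suppressor, or a blank vector and was selected with puromycin. A second carried AP-2α, AP-2γ (transcription factors encoded by TFAP2A and TFAP2C) or a blank vector and was selected with G418. The variants are therefore KK (both vectors blank), KA (blank, AP-2α), KC (blank, AP-2γ), WK (WWOX, blank), WA (WWOX, AP-2α) and WC (WWOX, AP-2γ), with 1 library of each per line. The study takes the 3 lines as replicates (n = 3 per variant). Within a line the labels name 1 first transduction of each kind, so the effect of WWOX and a difference between the transduced populations cannot be told apart. The libraries of a line share those populations. The p-values within a line rest on a spread between such libraries that is pooled over all 3 lines.

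Between 13357102 and 17958572 reads fell on genes in a library, and a gene without reads could still have up to 3 reads, worth 0.158 to 0.213 CPM. The library labelled CAL-29 KC stood apart, with a median correlation of 0.741 with the other CAL-29 libraries and of 0.94 with the HT-1376 libraries. Its levels are given apart, and the remaining 17 libraries are used in the comparisons of lines, the pooled tests and the tests within lines. The 5 comparisons with KK use all 18 libraries. The transgenes gave a partial check of the labels. TFAP2A was 2.6, 1.46 and 1.41 times as high in KA as in KK in RT-112, HT-1376 and CAL-29 (in this order), and TFAP2C was 4.55 and 1.35 times as high in KC as in KK in RT-112 and HT-1376. WWOX was 2.43 times as high in WK as in KK in CAL-29, but 0.858 and 0.831 times as high in RT-112 and HT-1376, so the label WWOX was not borne out by its own RNA level in these 2 lines. In CAL-29 WK held 154.92 CPM, but WA (69.27 CPM) and WC (62.36 CPM) lay near KK (63.68 CPM), with KA at 51.31 CPM. A clear rise of WWOX RNA over KK was thus seen in CAL-29 WK alone. The library labelled RT-112 WA had more TFAP2C (179.87 CPM) than RT-112 WC (142.75 CPM) and little more TFAP2A (25.32 CPM) than RT-112 WK (20.31 CPM). TFAP2A in HT-1376 WA (69.91 CPM) was 0.909 times that in HT-1376 WK (76.9 CPM), so the label AP-2α was not borne out by its RNA level there. The study checked the transductions by Western blot of WWOX and the AP-2 factors, which measures protein. Whether the values used here count reads of the transgenes is not given, so they do not decide on the labels. All 5 epithelial markers (EPCAM, CDH1, KRT8, KRT18 and KRT19) reached 5 CPM in every library of each line. Of 9 urothelial markers, 2 did so in HT-1376, 5 in CAL-29 and 7 in RT-112.

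RefSeq promoter windows, from 250 bases before to 50 bases after an annotated start, were at hand for 4 of the 8 genes. They are FAM50B, GRB10, MEST and H19, which are also the 4 genes that passed a test below. The window with the most CpG dinucleotides is shown for each. This choice does not show that the window lies in the region whose methylation marks the silent copy. The sequences are printed 5′ to 3′ on the strand of the gene. Capitals mark the AP-2 motif GCCNNNGGC, which reads the same on both strands, and the hexamer TGCCGC, searched on both strands, which is bound by ZFP57, a zinc finger protein that keeps imprints. Of all 35116 windows of this length, 23.2% held the AP-2 motif and 16.7% the hexamer.
FAM50B (GRCh38.p14, chr6:3849123-3849422, plus strand): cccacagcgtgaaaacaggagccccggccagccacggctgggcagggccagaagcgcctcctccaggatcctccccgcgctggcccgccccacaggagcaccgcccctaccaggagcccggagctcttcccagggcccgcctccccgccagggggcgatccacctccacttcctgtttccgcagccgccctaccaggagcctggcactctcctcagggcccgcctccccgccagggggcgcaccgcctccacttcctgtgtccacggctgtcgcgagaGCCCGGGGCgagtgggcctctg
GRB10 (GRCh38.p14, chr7:50792825-50793124, minus strand): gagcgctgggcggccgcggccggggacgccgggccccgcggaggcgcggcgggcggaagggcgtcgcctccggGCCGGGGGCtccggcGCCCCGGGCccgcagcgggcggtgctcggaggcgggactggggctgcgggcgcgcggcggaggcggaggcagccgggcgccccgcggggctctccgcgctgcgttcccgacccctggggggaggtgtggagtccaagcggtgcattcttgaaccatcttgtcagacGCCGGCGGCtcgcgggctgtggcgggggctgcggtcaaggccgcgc
MEST (GRCh38.p14, chr7:130491835-130492134, plus strand): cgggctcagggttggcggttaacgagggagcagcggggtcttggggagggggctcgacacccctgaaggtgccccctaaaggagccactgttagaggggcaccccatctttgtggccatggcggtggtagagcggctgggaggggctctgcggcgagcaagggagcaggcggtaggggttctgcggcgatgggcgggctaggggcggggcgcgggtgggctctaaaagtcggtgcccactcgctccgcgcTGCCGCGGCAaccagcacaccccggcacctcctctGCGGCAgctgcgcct
H19 (GRCh38.p14, chr11:2001217-2001516, minus strand): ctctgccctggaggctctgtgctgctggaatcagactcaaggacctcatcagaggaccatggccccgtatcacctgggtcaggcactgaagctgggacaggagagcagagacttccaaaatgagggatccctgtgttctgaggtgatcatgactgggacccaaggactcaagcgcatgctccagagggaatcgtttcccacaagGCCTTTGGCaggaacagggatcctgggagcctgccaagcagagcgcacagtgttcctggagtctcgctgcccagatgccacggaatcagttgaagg
The windows of FAM50B, GRB10, MEST and H19 held 23, 49, 25 and 6 CpG, against a median of 14 over all windows. The AP-2 motif occurred 1 time in FAM50B, 3 times in GRB10 and 1 time in H19, and the hexamer 3 times in MEST, with 2 of these overlapping. A match shows only that the letters are there. The table holds 1 value per gene, so it does not show which of the annotated starts was used. MEST and GRB10 each have 5 windows in the RefSeq table, and the H19 window belongs to a start upstream of most of its annotated starts.

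A gene was called on in a line if every library reached 5 CPM and off if none held more than 3 reads. By this rule 4 of the 8 genes were on in RT-112 (SGCE, MEST, H19 and PHLDA2), 3 in HT-1376 (SGCE, H19 and PHLDA2) and 2 in CAL-29 (MEST and PHLDA2), against 56.5%, 61.7% and 69.7% of the 13022 genes past the filter. CDKN1C did not pass the filter and could not be on, so the counts to set against these shares are 4, 3 and 2 of 7. FAM50B was off in RT-112 and HT-1376. PHLDA2 was on in all 3 lines. The other 13 of the 24 combinations of a gene and a line were low or mixed, and no member was on in all libraries of 1 line and off in all of another, a pattern that 1.98% of all genes past the filter showed. The libraries of RT-112 and HT-1376 did not overlap for 5 of the 8 genes, those of RT-112 and CAL-29 for 4, and those of HT-1376 and CAL-29 for 5. Over all genes past the filter the libraries did not overlap for 44.2%, 54.5% and 31.6% of genes in these pairs. Of the 7 genes past the filter, 4 did not overlap in each pair.

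**Figure D1:**
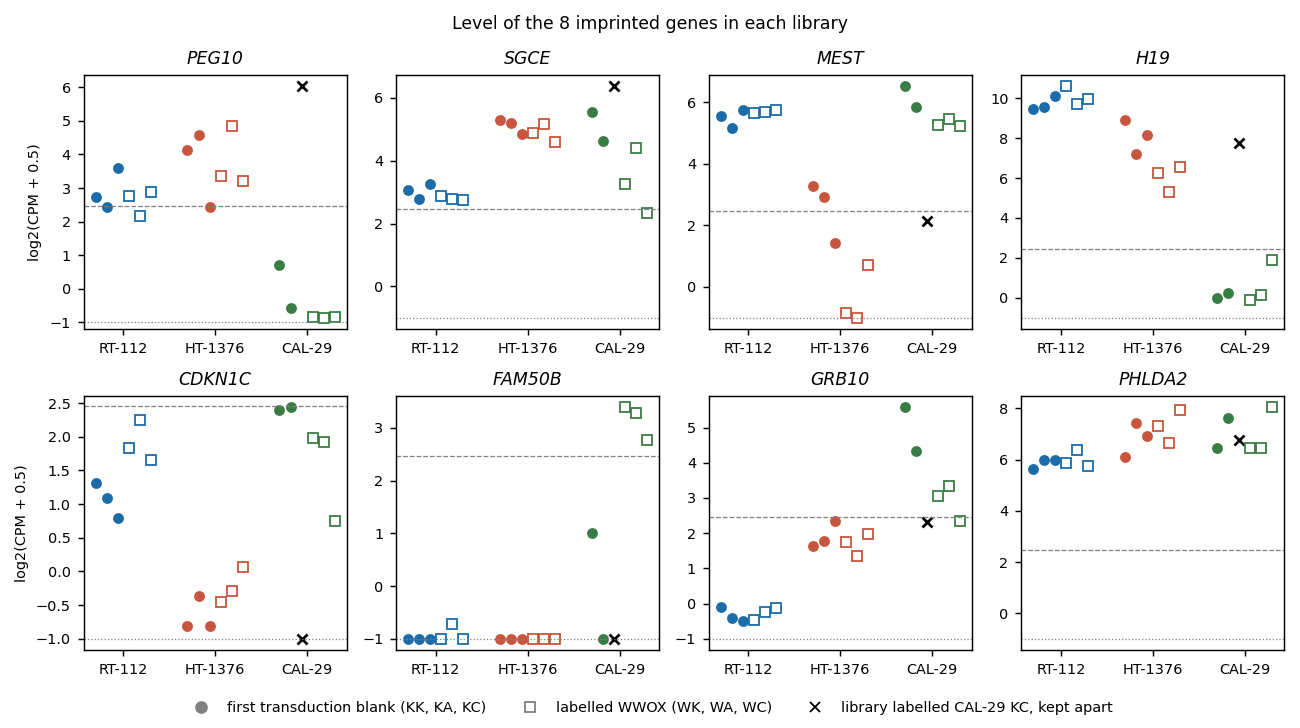
Level of each of the 8 genes on the log2(CPM + 0.5) scale (vertical axis, its own range in each panel) in the 6 variants of the 3 cell lines. Each point is 1 library, the dashed line is 5 CPM and the dotted line is 0 CPM; H19 and PEG10 lie lowest in CAL-29, MEST lowest in HT-1376, and FAM50B is at or near 0 in RT-112 and HT-1376.

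PEG10 (chr7:94656325-94669695, plus strand), a gene derived from a retrotransposon that placental development needs, and SGCE (chr7:94524204-94656572, minus strand), which encodes ε-sarcoglycan of the dystrophin-associated complex, are transcribed away from each other and are both expressed from the paternal copy. Their annotated starts lie 0.247 kb apart and their extents share 248 bases. PEG10 ranged from 4.02 to 11.6 CPM (median 6.205) in RT-112 and from 4.89 to 28.37 CPM (median 13.46) in HT-1376. The CAL-29 libraries held 1.12 (KK), 0.17 (KA), 0.06 (WK), 0.05 (WA) and 0.06 (WC) CPM, that is, 20 reads in KK and 3 or fewer in the other 4 libraries. The libraries of RT-112 and HT-1376 overlapped, and all lay above those of CAL-29.

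SGCE, next to it, was not low in CAL-29. It was at 46.86 (KK), 24.27 (KA), 9.17 (WK), 20.51 (WA) and 4.55 (WC) CPM, a 10.3-fold range that covered all 6 libraries of RT-112 (6.21 to 9.03 CPM, median 6.645) and overlapped HT-1376 (23.56 to 39.2 CPM, median 32.41). HT-1376 lay wholly above RT-112. The ratio of PEG10 to SGCE was 0.00244 to 0.0239 in CAL-29, against 0.172 to 0.791 in HT-1376 and 0.631 to 1.28 in RT-112. The ratios did not overlap between CAL-29 and either other line, so the neighbouring genes did not share their low state. In the library labelled CAL-29 KC PEG10 was at 65.1 CPM and SGCE at 82.57 CPM, above every library of all 3 lines, with a ratio of 0.788. The counting of reads by strand is not given in the sources used here, so reads in the shared bases may count to either gene.

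H19 (chr11:1995166-2004552, minus strand), a maternally expressed long non-coding RNA that shares enhancers with the paternally expressed growth factor gene IGF2, differed most between the lines of the 8 genes, with 95.4% of the variance of its log2 values between them. It ranged from 700.47 to 1565.57 CPM (median 921.7) in RT-112 and from 39.49 to 488.33 CPM (median 120.9) in HT-1376. The CAL-29 libraries held 0.5 (KK), 0.66 (KA), 0.44 (WK), 0.6 (WA) and 3.21 (WC) CPM, so that no pair of lines overlapped. The low level in CAL-29 was kept in both first transductions, and 8 to 57 reads remained. The library labelled CAL-29 KC, at 219.09 CPM, lay within the HT-1376 range. The row of MIR675, a microRNA inside H19, held 97.7% to 99.1% of the H19 value in the libraries of RT-112 and HT-1376, so the 2 rows count largely the same reads and the microRNA cannot be told apart from its host.

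IGF2 was highest in RT-112, as H19 was, but it did not share the low level of H19 in CAL-29. Its libraries ranged from 12.43 to 175.52 CPM in CAL-29, against 3.64 to 28.37 CPM in HT-1376 and 198.09 to 400.35 CPM in RT-112. The ratio of H19 to IGF2 was 0.00342 to 0.137 in CAL-29, 5.23 to 37.1 in HT-1376 and 2.6 to 5.04 in RT-112, and the lines did not overlap. CAL-29 was thus low in H19 with IGF2 still above 5 CPM in each library. The ratio was 73.5 in the library labelled CAL-29 KC, above all others.

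**Figure D2:**
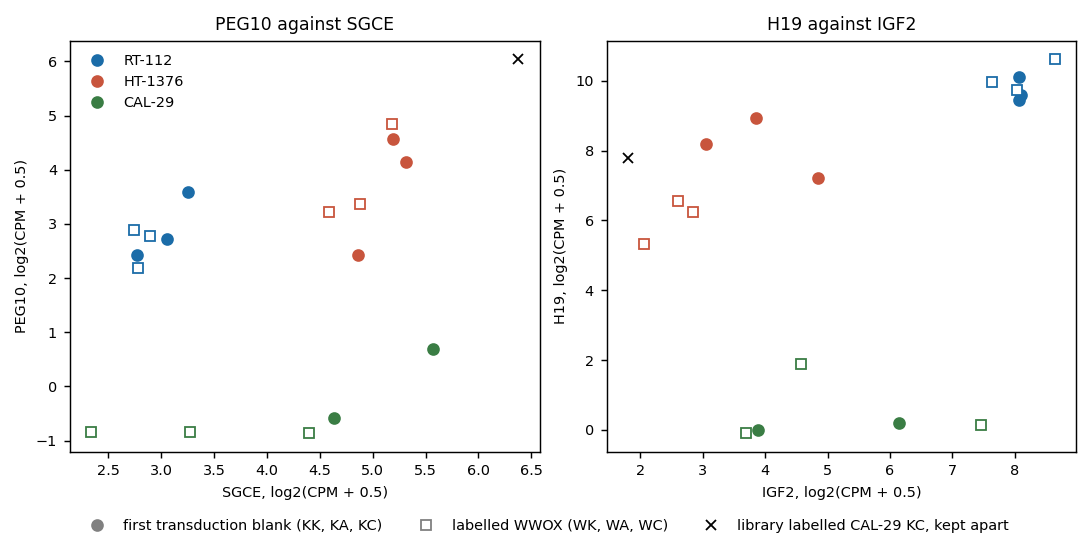
PEG10 against SGCE (left) and H19 against IGF2 (right), each axis log2(CPM + 0.5), with 1 point per library coloured by cell line. CAL-29 libraries lie at the bottom of both plots over a wide range of SGCE (4.55 to 46.86 CPM) and IGF2 (12.43 to 175.52 CPM), and the cross of CAL-29 KC lies away from them.

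The other 2 members on 11p15, CDKN1C (chr11:2883213-2885775, minus strand) and PHLDA2 (chr11:2928273-2929420, minus strand), are expressed from the maternal copy and belong to the imprinted domain next to that of H19. CDKN1C encodes p57, an inhibitor of cyclin-dependent kinases, and PHLDA2 a small protein with a pleckstrin homology domain that restrains placental growth. CDKN1C was low throughout, at 1.23 to 4.25 CPM (median 2.32) in RT-112 and 0.07 to 0.55 CPM (median 0.255) in HT-1376. The CAL-29 libraries held 4.76 (KK), 4.92 (KA), 3.43 (WK), 3.27 (WA) and 1.18 (WC) CPM. HT-1376 lay below both other lines, which overlapped, and the library labelled CAL-29 KC held 0 reads.

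PHLDA2 was the most even of the 8 genes between lines, with 49.8% of its variance between them. It ranged from 49.31 to 82.06 CPM (median 60.89) in RT-112 and from 68.79 to 247.62 CPM (median 139.6) in HT-1376. The CAL-29 libraries held 88.18 (KK), 194.97 (KA), 87.07 (WK), 87.22 (WA) and 264.45 (WC) CPM. RT-112 lay below CAL-29, while HT-1376 overlapped both. KCNQ1OT1, the antisense RNA that silences this domain on the paternal copy, held 0.06 to 1.13 CPM over the 17 libraries, and the neighbours SLC22A18 and NAP1L4 were on in all 3 lines.

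MEST (chr7:130486171-130506465, plus strand), a paternally expressed gene for an enzyme of the α/β-hydrolase fold, was on in RT-112 and CAL-29 and lowest in HT-1376. It ranged from 35.67 to 53.41 CPM (median 50.45) in RT-112. The CAL-29 libraries held 91.99 (KK), 57.51 (KA), 37.68 (WK), 43.91 (WA) and 37.39 (WC) CPM. The HT-1376 libraries held 9.34 (KK), 7.15 (KA), 2.2 (KC), 0.06 (WK), 0 (WA) and 1.15 (WC) CPM, below every library of the other lines. The 3 HT-1376 libraries with a blank first vector lay above the 3 labelled WWOX, and in CAL-29 KK and KA lay above WK, WA and WC. CEP41, the nearest gene of the table upstream, was on in all 3 lines. COPG2, which lies on its other side and is also in the list of imprinted genes, held 1.49 to 9.43 CPM in HT-1376.

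GRB10 (chr7:50590063-50793462, minus strand) encodes an adaptor that binds the insulin and IGF1 receptors and dampens their signal, and its parental copy in use differs between tissues. It rose from RT-112 (0.21 to 0.44 CPM, median 0.3) through HT-1376 (2.04 to 4.54 CPM, median 2.91) to CAL-29, where it was at 47.26 (KK), 19.68 (KA), 7.79 (WK), 9.6 (WA) and 4.61 (WC) CPM. No pair of lines overlapped. The 4 to 8 reads per library in RT-112 exceeded the limit for off. The library labelled CAL-29 KC, at 4.47 CPM, lay in the range of HT-1376.

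FAM50B (chr6:3849373-3851320, plus strand), an intronless copy of the X-linked gene FAM50A that is expressed from the paternal allele, exceeded 3 reads in CAL-29 alone among the 17 libraries. It held 0 reads in all 6 libraries of HT-1376 and in 5 of RT-112, and 2 reads in RT-112 WA. The CAL-29 libraries held 1.51 (KK), 0 (KA), 10.0 (WK), 9.22 (WA) and 6.3 (WC) CPM. The 3 libraries labelled WWOX were thus on and the 2 with a blank first vector low or at 0, and the library labelled CAL-29 KC held 0 reads. FAM50A was on in all lines, at 40.04 to 104.74 CPM.

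The levels were steadier over the transductions in RT-112 than in the other lines. With libraries under 3 reads set to 3 reads, the highest library of a line was 1.66 times the lowest in RT-112 in the median of the 7 tested members, 3.6 times in HT-1376 and 7.25 times in CAL-29. The medians over all genes past the filter were 1.71, 2.14 and 2.38. The share of the variance between lines had a median of 81.6% over the 7 members and of 70.4% over all genes past the filter. The median of the members was 55% with the library labelled CAL-29 KC included. The value over all genes with that library is not given here, so 55% cannot be set against 70.4%. That library lay within the HT-1376 range for 5 of the 8 genes, the CAL-29 range for 2 and the RT-112 range for 1.

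The question of the study, whether WWOX and the AP-2 factors change expression over the 3 lines, was first asked with each variant against KK in limma over all 18 libraries (CAL-29 KC included), with Benjamini-Hochberg adjustment over 13022 genes. None of the 7 tested members was called at an adjusted p of 0.05 against KK in any of the 5 comparisons, and 0% of all genes were. An unadjusted p under 0.05 was reached by 84 genes for WC, 37 for WA, 38 for WK, 11 for KC and 7 for KA, with 0 members among them, and limma-voom, edgeR and DESeq2 called 0 members too. The SE of a member's log2 difference lay between 0.59 for PHLDA2 and 3.29 for H19. The largest falls were those of MEST, with -2.03 in KC/KK and -1.77 in WK/KK (SE 2.03), and the largest rise was that of H19 in KC/KK (2.56). Without the library labelled CAL-29 KC and with the cell line as a replicate block, MEST in KC/KK was -0.75 and H19 0.37, and without all CAL-29 libraries they were -0.84 and -0.05. MEST in WK/KK was -0.59 without the HT-1376 libraries. PHLDA2 had the smallest unadjusted p, with a log2 difference of 1.18 (SE 0.59, unadjusted p = 0.0629, adjusted p = 1 in limma) in WC/KK, and was higher in WC than in KK with factors of 3.0 in CAL-29, 3.6 in HT-1376 and 1.08 in RT-112.

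With the cell line as a term and all second transductions pooled, 0 of 7 members and 0% of genes were called for WWOX, AP-2α or AP-2γ. DESeq2, edgeR and limma-voom with the same terms called 225, 16 and 70 genes for WWOX and no members, and 1598 genes had an unadjusted p under 0.05 in limma. MEST (-1.23, SE 0.43, unadjusted p = 0.0121, adjusted p = 0.326), FAM50B (0.92, SE 0.42, adjusted p = 0.398) and SGCE (-0.62, SE 0.27, adjusted p = 0.381) were the members with an unadjusted limma p under 0.05 for WWOX. PHLDA2 was the member with one for AP-2γ, out of 343 genes (0.68, SE 0.3, unadjusted p = 0.0373, adjusted p = 0.999). For AP-2α no member had one, out of 199 genes.

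Within the cell lines the picture differed. In RT-112 no member and 0% of all genes passed the limma test of WWOX-labelled against blank first transductions, with log2 differences between -0.31 for PEG10 and 0.39 for H19 (979 genes had an unadjusted p under 0.05, 0 of them members, and the other tool run, edgeR, called 0). In HT-1376 2 of 7 members fell, MEST and H19, beside 8.59% of all genes called (548 higher and 570 lower). In CAL-29 FAM50B rose and GRB10 fell, beside 0.591% of all genes called (43 higher and 34 lower). Different members thus passed in the 2 lines. FAM50B held 0 reads in every HT-1376 library and H19 only 0.44 to 3.21 CPM in CAL-29, which limits what the tests could show there. MEST was also lower without overlap in the WWOX-labelled libraries of CAL-29, but was not called there (log2 difference -0.89, SE 0.54, adjusted p = 0.558 in limma). With 2 blank and 3 WWOX-labelled libraries there, PEG10, SGCE, CDKN1C, FAM50B and GRB10 did not overlap either. CDKN1C was lower with the label WWOX in CAL-29 but higher without overlap in RT-112. The share of all genes without such overlap is not given here, so a lack of overlap is a description alone. The groups of H19 overlapped in CAL-29, and those of GRB10 in HT-1376. The test of the difference between the 3 lines was passed by FAM50B (adjusted p = 0.0151, but 0.984 in edgeR) and MEST (adjusted p = 0.0479, lost in 12 of 17 fits without 1 library), beside 3.02% of all genes, and not by H19 (0.0514) or GRB10 (0.0826). FAM50B was at or near 0 reads in RT-112 and HT-1376 and passed the filter only through the WWOX-labelled CAL-29 libraries. Its difference between lines is therefore not independent of the filter.

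MEST in HT-1376 had a mean of 6.23 ± 3.66 CPM (SD, n = 3) with a blank first vector and of 0.403 ± 0.647 CPM (SD, n = 3) in the libraries labelled WWOX. The log2 difference was -2.93 (SE 0.47, adjusted p = 0.00287 in limma), and no library left out ended the call. H19 was at 488.33, 148.38 and 289.58 CPM in KK, KA and KC and at 75.7, 39.49 and 93.35 CPM in WK, WA and WC. The groups did not overlap, with means of 309 ± 171 and 69.5 ± 27.5 CPM (SD, n = 3 each) and a log2 difference of -2.07 (SE 0.42, adjusted p = 0.00998). Without HT-1376 KK the adjusted p of H19 was 0.0619. With the library labelled CAL-29 KC in the fit, whose WWOX term it enters as a blank CAL-29 library, the calls of MEST (adjusted p = 0.072) and H19 (0.347) were both lost, while the log2 differences stayed at -2.93 and -2.07.

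FAM50B in CAL-29 had a mean of 0.755 ± 1.07 CPM (SD, n = 2) with a blank first vector and of 8.51 ± 1.95 CPM (SD, n = 3) in the libraries labelled WWOX. The log2 difference was 3.19 (SE 0.42, adjusted p = 0.00453 in limma). The blank side rests on 2 libraries of low counts, and with edgeR on the recovered reads the adjusted p was 0.219. FAM50B passed the filter only through the libraries labelled WWOX, the group in which it was higher. Its call is therefore not independent of the filter. The SE is pooled over lines, and FAM50B had almost no reads, and so hardly any spread, in RT-112 and HT-1376. GRB10 fell from 33.5 ± 19.5 CPM (SD, n = 2) to 7.33 ± 2.53 CPM (SD, n = 3), a log2 difference of -2.05 (SE 0.42, adjusted p = 0.0457). Its groups did not overlap, but 15 of 17 fits without 1 library lost the call, and without CAL-29 KK the difference was -1.44 (adjusted p = 0.204). SGCE had a log2 difference of -1.62 (SE 0.43, adjusted p = 0.114) and the libraries with a blank first vector lay above the rest, and PEG10, at the edge of detection there, had one of -0.81 (SE 0.65, adjusted p = 0.703).

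**Figure D3:**
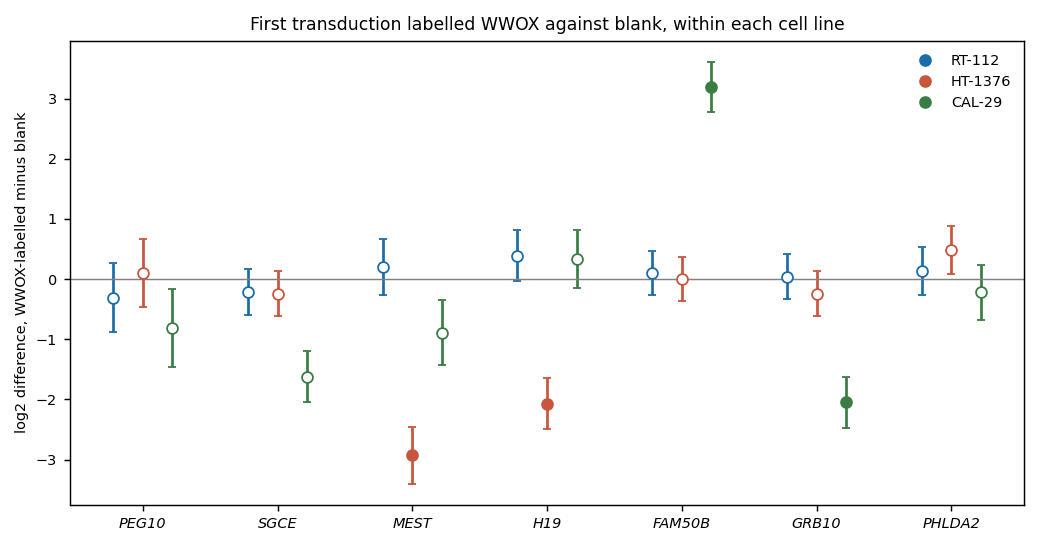
Log2 difference between WWOX-labelled and blank first transductions (vertical axis, on the log2(CPM + 0.5) scale) for the 7 tested members in each cell line, with bars of 1 SE; filled points have a limma adjusted p under 0.05. MEST (-2.93) and H19 (-2.07) are filled in HT-1376, FAM50B (3.19) and GRB10 (-2.05) in CAL-29, and none in RT-112.

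Other imprinted genes were taken from a list of 60, of which 38 were in the table and 30 passed the filter. In HT-1376 3 of the 30 were called between the first transductions, 2 higher and 1 lower in the libraries labelled WWOX, beside the 8.59% of all genes called, and the median log2 difference of the list was -0.22 beside -0.13 over all genes. None of the 30 were called in RT-112 or CAL-29, in the 5 comparisons with KK or in the pooled tests. TFPI2, a protease inhibitor gene near PEG10, rose from 0.66, 1.08 and 1.28 CPM in KK, KA and KC to 11.76, 12.27 and 16.38 CPM in WK, WA and WC (log2 difference 3.22, SE 0.48, adjusted p = 0.00181). The difference between lines was also called for TFPI2 (adjusted p = 0.0205), with RT-112 at 12.69 to 36.01 CPM and no such split. It was lost with the library labelled CAL-29 KC (0.179) and without HT-1376 KK (0.0682), WA (0.0511) or WC (0.0588).

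ASCL2, a transcription factor gene of the 11p15 region, fell from 98.26, 64.63 and 79.7 CPM to 19.9, 12.33 and 44.1 CPM in the same order (log2 difference -1.82, SE 0.37, adjusted p = 0.0103; 0.0572 without HT-1376 KK and 0.0781 without HT-1376 WK). OSBPL5, a lipid transfer protein gene on 11p15, rose from 0.26, 1.13 and 2.06 CPM to 2.75, 3.07 and 3.51 CPM (log2 difference 1.29, SE 0.35, adjusted p = 0.0359), a call that 9 of 17 fits without 1 library lost. IGF2 in HT-1376 was at 13.88, 28.37 and 7.8 CPM with a blank first vector and 6.71, 3.64 and 5.59 CPM in the libraries labelled WWOX, with a log2 difference of -1.41 (SE 0.68, adjusted p = 0.203). The groups of IGF2 did not overlap, yet the difference did not pass. The 4 genes MEST, H19, ASCL2 and IGF2 were lower and TFPI2 and OSBPL5 higher by value, in a line where 8.59% of all genes were called. ASCL2 was also lower without overlap in the WWOX-labelled libraries of CAL-29 (5.23 to 10.22 against 16.09 to 18.72 CPM), but was not called there. The share of all genes whose groups do not overlap in this way is not given here. The groups of IGF2, TFPI2 and OSBPL5 overlapped in CAL-29.

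Of 20 factors that set or keep imprints, 17 were in the table and 15 passed the filter. The maintenance methyltransferase gene DNMT1, its partner UHRF1 and TRIM28, the corepressor that zinc finger proteins recruit, were on in all 3 lines. ZFP57, which binds methylated imprinting control regions, was present in HT-1376 alone of the 3 lines. It was at 2.89, 2.67 and 3.05 CPM in KK, KA and KC and at 12.04, 10.48 and 14.13 CPM in WK, WA and WC of HT-1376 (log2 difference 1.91, SE 0.22, adjusted p = 3.1e-04). It held at most 1 read per library in RT-112 and 0 in CAL-29, but 2.74 CPM in the library labelled CAL-29 KC. ZFP57 was the 1 factor of 15 called, beside 8.59% of all genes. It passed the filter only through the HT-1376 libraries labelled WWOX, so its call is not independent of the filter. The SE of ZFP57 is pooled over lines, and the gene hardly varied in RT-112 and CAL-29. The difference between the lines was called too (adjusted p = 0.00973), though not by edgeR (0.459), with a pseudocount of 0.05 CPM (0.0553) or with the library labelled CAL-29 KC (0.175).

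**Figure D4:**
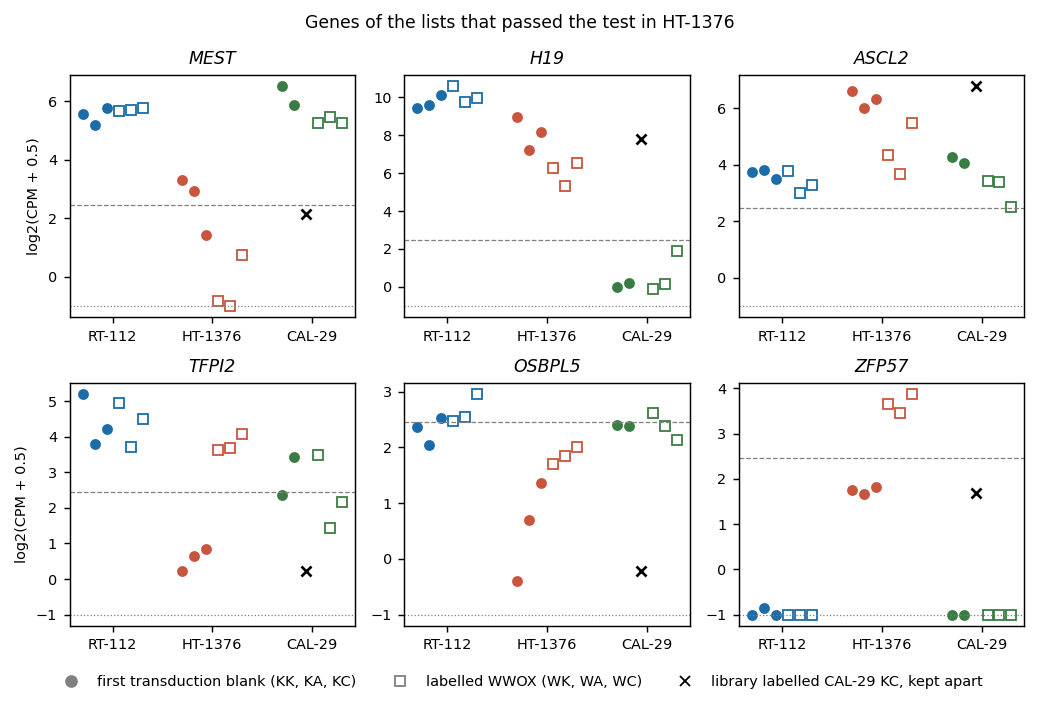
Level of MEST, H19, ASCL2, TFPI2, OSBPL5 and ZFP57, the imprinted genes and the imprint factor called between the first transductions of HT-1376, on the log2(CPM + 0.5) scale by cell line, with 1 point per library. In HT-1376 the 3 circles and the 3 squares do not overlap in any panel, which follows in large part from choosing genes by the call there. In RT-112 they overlap in each panel, but ZFP57 is at or near 0 in RT-112 and in CAL-29 outside the cross. In CAL-29 circles and squares are apart for MEST and ASCL2 and overlap in the other panels.

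The fibroblast marker COL1A2, named after its values were seen, moved with the same split. It was at 1.49 to 4.37 CPM in the HT-1376 libraries with a blank first vector and 18.85 to 46.08 CPM in those labelled WWOX. The other fibroblast markers are not given by group here, and COL1A2 held 0 reads in every library of RT-112. The summed fibroblast markers (4 of 5 in the table) ranged from 5.33 to 59.6 CPM in HT-1376, from 15.5 to 20.3 in RT-112 and from 5.63 to 18 in CAL-29, and their part in the result was not tested.

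Of the genes of these 2 lists past the filter, NLRP2 was the only one on in all libraries of 1 line and off in all of another. It is linked to imprinting in the embryo and ranged from 5.85 to 22.77 CPM in RT-112 and 12.11 to 37.64 CPM in HT-1376, with at most 0.11 CPM in CAL-29, the order of PEG10. Over the 17 libraries its log2 values had a Pearson r of 0.941 with PEG10, next to IRS2, an insulin receptor substrate gene, at 0.943. PLAGL1, a paternally expressed zinc finger gene whose row equals that of HYMAI in all 18 libraries, was at 3.88 to 10.06 CPM in CAL-29 and at most 0.44 CPM elsewhere, the order of FAM50B. These likenesses are descriptions over libraries that fall into 3 lines.

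The 2 genes nearest in pattern were SLC29A3 (r = 0.983) and IDH2 (0.972) for MEST, CHL1 (0.985) and CPA6 (0.969) for FAM50B, and ZNF572 (0.969) and ZNF528-AS1 (0.968) for GRB10. For SGCE they were ZNF165 (0.955) and SERGEF (0.943), and for H19, after MIR675, the gene ENSG00000280071 (0.982). With the exception of MIR675, none of these genes lies on the chromosome of its member.

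Of 26 paralogues and partners of the members, 22 were in the table and 21 passed the filter, and 2 were on in 1 line and off in another, IRS2 and RTL8B. RTL8B, related to PEG10 through its retrotransposon origin, held 0 reads in RT-112, 0.92 to 3.18 CPM in HT-1376 and 7.13 to 14.09 CPM in CAL-29. In HT-1376 2 of the 21 were called, beside 8.59% of all genes. CDK6, a kinase gene of the cell cycle, rose (log2 difference 1.8, SE 0.45, adjusted p = 0.0273) and RTL8A fell (-1.07, SE 0.28, adjusted p = 0.033). Both calls were lost in some fits without 1 library, with adjusted p up to 0.148 and 0.183. The other CDK inhibitor genes, CDKN1A (75.09 to 748.25 CPM) and CDKN1B (16.22 to 71.33 CPM), the paralogues PHLDA1 (77.02 to 507.63 CPM) and PHLDA3 (130.61 to 296.53 CPM), and GRB7 (36.83 to 212.85 CPM) were on in all 3 lines. GRB14 held at most 1.7 CPM.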

How the data were processed

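CAGE-seq libraries of 6 variants in each of 3 bladder cancer cell lines were used (18 libraries). Reads (75 nt) were aligned by the authors to hg38 using BWA, with HISAT2 2.0.5 for the remainder. The tags were grouped by Paraclu (RECLU), clusters that were wide or poorly reproducible were dropped, and the authors deposited CPM per gene. The annotation, the assignment of clusters to genes, the use of strand and the total behind the CPM are not given in the sources used here. Cluster filters and the merging of alternative starts into 1 value may lower or blur weakly used promoters.

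Identifiers were joined to GENCODE 44, and 16553 of 16575 matched. Reads were recovered from the deposited CPM by dividing by the CPM that 1 read is worth, and were whole within 0.005 CPM for 99.97% to 99.99% of values. Limits and read counts cover counting error only. The 13022 genes that reached 5 CPM in any library were put on the log2(CPM + 0.5) scale for limma 3.58.1 in R 4.3.3, with a trended variance and Benjamini-Hochberg adjustment. Log2 differences on this scale understate changes of low genes. The 5 comparisons used the variant means over 18 libraries, without a block as in the study. The pooled tests used cell line, WWOX, AP-2α and AP-2γ, and the tests within lines a WWOX term per line, without the library labelled CAL-29 KC. The tests within lines came from a single fit, so their spread is pooled over the lines. The cell line pairs the libraries by design, and after the variant means were removed the lowest correlation between libraries of a line was 0.036 in CAL-29 (0.663 without CAL-29 KC), 0.588 in HT-1376 and 0.742 in RT-112. Fits were tested on simulated data.

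The members and lists were chosen with earlier results of these data known. Named beside the members were list genes called or on in 1 line and off in another, transgenes, partners of the members, the 2 genes with the highest Pearson r (for PHLDA2 not reported here), and neighbours by start. CDK6 and RTL8A were called members of the list of partners, and IGF2, COL1A2, PLAGL1, DNMT1, UHRF1, TRIM28 and COPG2 were named after their values were seen. Alternatives were other pseudocounts, filters, TMM scaling, quantile normalization, the block, left-out libraries, limma-voom, edgeR 4.0.16 and DESeq2 1.42.0. Plots were drawn with matplotlib 3.10.9.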

Additional observations from a re-analysis of the deposited data

Results flagged for a closer look

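The outlying sample of a group of 5 or 6 libraries of a line was sought for each member on the log2 scale, by its gap to the nearest other library over the range of the group. Chance marks about 1 in 20 groups, and 4 of 23 were marked. PEG10 in CAL-29 KK (1.12 CPM) stood above the rest of its line with a ratio of 0.817, and H19 in CAL-29 WC (3.21 CPM) with one of 0.847. MEST in RT-112 KA (35.67 CPM) stood below its line with 0.685. FAM50B in RT-112 WA (0.11 CPM, 2 reads) had a ratio of 1, since the other 5 libraries were at 0.

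The effect of the first transduction labelled WWOX differed between the cell lines for FAM50B (adjusted p of the limma interaction 0.0151), MEST (0.0479), TFPI2 (0.0205) and ZFP57 (0.00973). FAM50B rose in CAL-29, MEST fell in HT-1376, and TFPI2 and ZFP57 rose in HT-1376. FAM50B and ZFP57 passed the filter only through the libraries in which they rose. Both held almost no reads in the other lines, so their differences between lines are not independent of the filter. All 4 differences were lost when the library labelled CAL-29 KC was added (FAM50B 0.0543, MEST 0.256, TFPI2 0.179 and ZFP57 0.175).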

How the results depend on the processing

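No alternative led to a call of a member in the 5 comparisons with KK or in the pooled tests, the replicate block (cell line) and the fits without the library labelled RT-112 WA, an alternative chosen after seeing the data, included. Genes called over the whole table in the comparisons with KK were 0 in limma with and without the block, 5 in KC/KK with edgeR and the block, and with DESeq2 2 in KA/KK, 4 in KC/KK, 3 each in WK/KK and WA/KK, and 9 in WC/KK. H19 in KC/KK reversed to -0.05 without CAL-29 and was 4.21 without HT-1376. For WWOX pooled over lines, other settings called 2 (pseudocount 0.05 CPM), 6 (without CAL-29), 70, 16 and 225 genes, for AP-2α 1 gene (edgeR and DESeq2 each) and for AP-2γ 2 and 12.

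Within lines, the number of members called for HT-1376 was 0 with the library labelled CAL-29 KC, and 1 to 2 in the fits leaving out 1 library. For CAL-29 it was 0 with a pseudocount of 0.05 CPM, 1 with that library, 1 with edgeR and 3 with quantile normalization (2 as reported), and 1 to 3 with 1 library left out. For the difference between lines it was 0 with a pseudocount of 0.05 CPM, with that library and with edgeR, 4 with quantile normalization, and 1 to 5 with 1 library left out. MEST lost this difference in 12 of 17 fits, while FAM50B kept it in all 17. Genes called were 241 (with CAL-29 KC) to 1440 in HT-1376 (1118 as reported; 298 without WK, 382 without KK, 482 without KA, 651 without WC, 1763 without CAL-29 KA and 1764 without CAL-29 KK), 24 to 206 in CAL-29 (77; 24 without KK, 27 without WK and 686 without WA), 0 to 661 for the difference (393; 102 to 979 with 1 library left out), and up to 3 in RT-112 (15 without WK). Without a blank CAL-29 library the remaining 1 is assumed to vary like the other groups. The cause was not tested. With CAL-29 KC the calls in HT-1376 of ASCL2 (0.0956), OSBPL5 (0.236), ZFP57 (0.0716), CDK6 (0.156) and RTL8A (0.0716) were lost, and that of TFPI2 was kept (0.0258). The direction was kept in each alternative for MEST, H19, ASCL2, OSBPL5, TFPI2, ZFP57, CDK6 and RTL8A in HT-1376 and for FAM50B, GRB10 and SGCE in CAL-29. The other effects within lines are not reported here under the alternatives.

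The combinations of gene and line with a clear state were 11 of 24, 18 with on set at 1 CPM, and 10 to 13 otherwise. The median share of variance between lines was 70.9% and 78.8% with pseudocounts of 0.05 and 2 CPM, 55% with the library labelled CAL-29 KC and 83% with TMM scaling (81.6% as reported). Depth limits FAM50B, PEG10 in CAL-29 and MEST in HT-1376, where a read more or less moves the log2 value.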
